A study of Mus musculus with 6 samples.

Results

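The nuclear receptors are a family of transcription factors, and the genes described here are its members other than the steroid receptors, the REV-ERBs and COUP-TFII. Pparg, Nr5a1 and Nr0b1 are not among them either. They were chosen by name: a probe counted where the platform annotation gives it 1 of 35 gene symbols. Probes were found for 33 of these genes, 37 probes in all, among 37932 probes and 21878 genes of the table. Nr1h2 and Nr2e3 had no probe under their symbols, so no scores are given for them.

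Many members of the family bind a small fat-soluble ligand, such as a retinoid, an oxysterol, a bile acid or a fatty acid, and switch genes on or off by trading corepressors for coactivators. Receptors for retinoic acid, thyroid hormone, vitamin D, fatty acids and oxysterols bind DNA as dimers with a retinoid X receptor, so that these partners are shared by many pathways. Orphan members such as the NR4A proteins have no established natural ligand and act mainly through how much of them is made. In the ovary, LRH-1 (Nr5a2) drives steroid synthesis in granulosa cells, and the NR4A genes are induced quickly by gonadotropins.

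Tumour RNA was measured on 3 single-colour (Cy3) arrays from RU486-treated mice and 3 from placebo-treated mice. All mice carried Pgrcre/+mPgrLsL/+ per the sample labels, which the design text of the series writes as Pgrcre/+PgrBLsL/+, and expressed the B form of the progesterone receptor. By these allele names Cre is driven from the Pgr locus, and no array comes from mice without the alleles, so that the comparison is of drug against placebo in PGR-B mice. Mice had ovarian tumours of 0.5 to 1 cm when they received a chronic-release pellet of RU486, which blocks the progesterone and glucocorticoid receptors, or of placebo, for 24 h. The labels give neither age nor whether the arrays come from different animals. The p-values therefore measure only the spread between these samples, which may be technical.

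The deposited values are scores. Every probe had been set to mean 0 and SD 1 across the 6 arrays. A score says how many SDs a probe lay above or below its own mean, and neither a level nor a fold change can be recovered. Levels of different genes cannot be compared, and it cannot be seen whether a gene was above background or whether the markers of ovarian cells were present. Differences are given as RU486 mean minus placebo mean in these SDs (the standardised difference), and for a gene with 1 probe its size cannot pass 1.83. Brighter probes were assumed to carry higher scores. RNA came from whole tumour pieces, so fewer cells of a type and less RNA per cell cannot be told apart. Median scores over all probes ran from -0.363 to -0.0875 on RU486 arrays and from -0.384 to 0.212 on placebo arrays.

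No nuclear receptor gene passed the test over all genes. By the ordinary statistic of limma, 0 of 33 genes had an adjusted p under 0.05 (Benjamini-Hochberg over 21878 genes), against 1 gene, or 0.00457%, in the whole table. The smallest adjusted p in the family was 0.182. At an unadjusted p under 0.05 there were 3 of 33 (9.09%), against 12.3% of all genes. They were Ppara and Nr4a1 with lower scores in RU486 tumours, where 7.08% of all genes lay, and Nr1h3 with higher scores, where 5.24% of all genes lay. The groups did not overlap for 8 of 33 genes (24.2%), close to the 22.0% of all genes. Of these, Ppara, Nr4a1 and Rxrg were lower with RU486 (9.09%, against 10.8% of all genes). Nr1h3, Nr2f6, Nr2e1, Rxra and Nr4a3 were higher (15.2%, against 11.2%). The share over both directions is near that of the whole table, and the family was not tested as a set. The median difference was 0.0629 over the 33 genes and -0.0582 over all genes, and 13 of the 33 differences were negative (39.4%), against 51.6% of all genes. With each array centred on its median, which shifted the median of all genes by 0.12, there were 2 lower genes and 2 higher ones (Nr1h3 and Nr2f6) at an unadjusted p under 0.05, against 6.82% and 3.1% of all genes.

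Single arrays moved these counts. At an unadjusted p under 0.05 Ppara was the 1 lower gene left when RU486 array 1, RU486 array 3 or placebo array 3 was dropped, where 4.59%, 5.29% and 5.17% of all genes were lower. Without RU486 array 2 the lower genes were 5, Ppara, Ppard, Nr4a2, Rarb and Vdr, against 7.14% of all genes, while Nr4a1 was no longer past that p. Without placebo array 2 they were 3, with Rxrg added, against 5.52%. The higher genes numbered 0 when either placebo array 1 or 3 was dropped, against 2.19% and 1.67% of all genes. They were 2, Nr1h3 and Rxra, without RU486 array 3, against 2.64%. Without RU486 array 2 the 1 higher gene was Nr2e1, against 10.5%. Without RU486 array 2 the groups did not overlap for 13 genes, where the share of all genes was 40.8%.

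**Figure D1:**
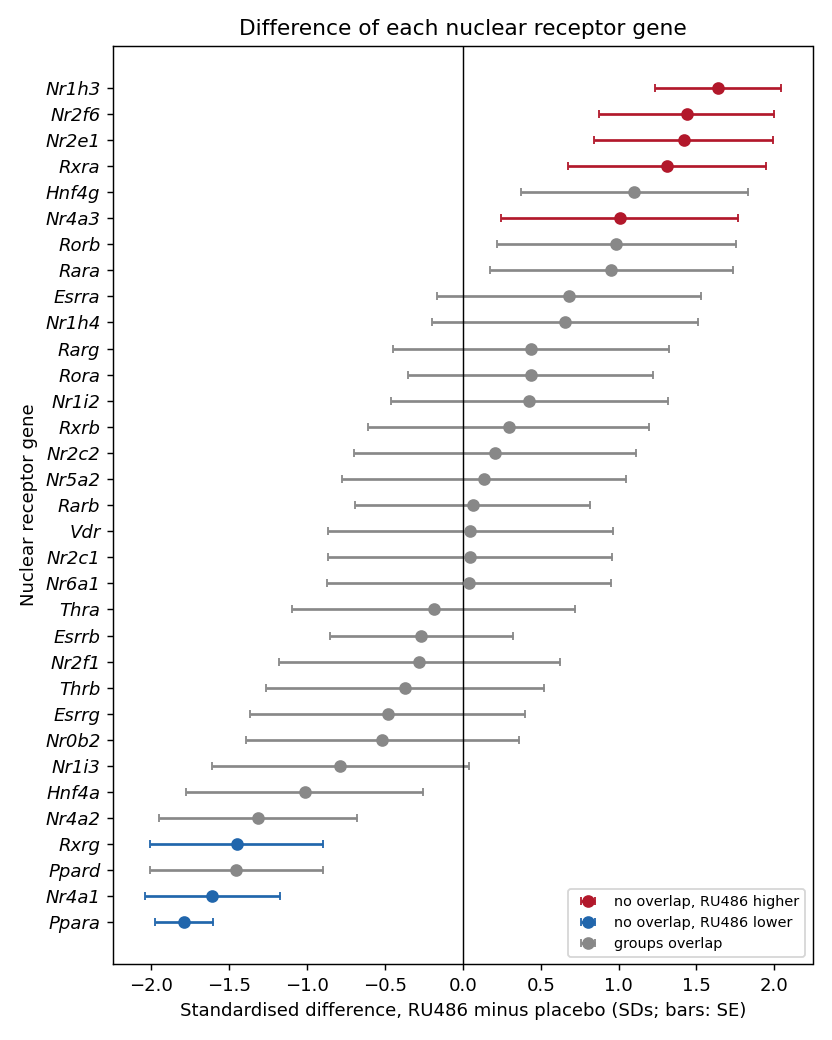
Standardised difference, in SDs, RU486 minus placebo, of each of the 33 nuclear receptor genes, with bars for the SE (n = 3 arrays a group). Nr1h3 stands at the top at 1.64 and Ppara at the bottom at -1.79, with the shortest bar, and 25 genes in grey have groups that overlap.

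Among the fatty acid receptors, both PPAR genes measured here had lower scores in RU486 tumours. Ppara (Entrez gene 19013), whose product turns on genes of fatty acid oxidation, had scores of -0.988, -0.969 and -0.723 in RU486 arrays 1 to 3, against 0.565, 1.01 and 1.10 in placebo arrays 1 to 3. The 3 RU486 arrays lay close together, and 1.29 parted them from the lowest placebo array. Means were -0.894 ± 0.148 in RU486 and 0.894 ± 0.288 in placebo arrays (SD, n = 3). The difference was -1.79 (SE 0.187, limma p = 0.000668, adjusted p = 0.182, exact permutation p = 0.1), and Ppara ranked at 80 of 21878 genes by unadjusted limma p. Over the 13 alternative settings its unadjusted limma p ran from 0.000117 to 0.0183 and its adjusted p from 0.0744 to 0.590, so that under none of the 13 did it pass over all genes. The exact two-sided permutation p of 0.1 is the smallest that 3 against 3 arrays allow.

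Ppard (Entrez gene 19015), a widely expressed relative of Ppara, had scores of -1.45, 0.158 and -0.889 in RU486 arrays 1 to 3, against 0.962, 1.07 and 0.149 in placebo arrays 1 to 3. RU486 array 2 lay just above placebo array 3, for a gap of -0.00874, and this alone made the groups overlap. The difference was -1.45 (SE 0.553, limma adjusted p = 0.390).

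Of the oxysterol, bile acid and xenobiotic receptors, Nr1h3 had the largest difference. Nr1h3 (Entrez gene 22259) codes for LXR alpha, an oxysterol sensor of macrophages and liver that controls cholesterol export. Its scores were 1.40, 0.806 and 0.248 in RU486 arrays 1 to 3, against -1.16, -0.387 and -0.905 in placebo arrays 1 to 3. All RU486 arrays lay above 0 and all placebo arrays below it, with a gap of 0.635. The means were 0.819 ± 0.577 in RU486 and -0.819 ± 0.395 in placebo arrays (SD, n = 3), and the difference was 1.64 (SE 0.404, limma p = 0.0154, adjusted p = 0.353, exact permutation p = 0.1). The unadjusted limma p lay above 0.05 without RU486 array 2 (0.0512), placebo array 1 (0.0530) or placebo array 3 (0.0544), and with the replicate number as a block (0.0718). The macrophage markers Cd68, Adgre1, Csf1r, Mrc1 and Cd14 overlapped between groups. Their mean score ran from -0.944 to 1.42 on RU486 arrays and from -0.317 to 0.686 on placebo arrays, and 4 of the 5 differences were negative.

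The other receptors of this class had overlapping groups. The bile acid receptor gene Nr1h4 (FXR) stood at 0.656 (SE 0.852). It had 1.93 on RU486 array 1 and scores from -0.770 to 0.0551 on the other 5 arrays. Nr1i2, the gene of the xenobiotic sensor PXR, stood at 0.427 (SE 0.888) and likewise had its highest score, 1.65, on RU486 array 1. Without that array both differences turned negative, at -0.143 for Nr1h4 and -0.288 for Nr1i2. Nr1i3, the gene of the related sensor CAR, stood at -0.785 (SE 0.824).

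In the NR4A subfamily, orphan receptors whose genes respond within minutes to hormones and stress, the 3 genes had differences of both signs. Nr4a1 (Entrez gene 15370), which codes for NUR77, had scores of -1.07, -0.724 and -0.617 in RU486 arrays 1 to 3, against 0.131, 1.55 and 0.727 in placebo arrays 1 to 3. The groups were parted by 0.748. Means were -0.803 ± 0.236 in RU486 and 0.803 ± 0.713 in placebo arrays (SD, n = 3), and the difference was -1.61 (SE 0.434, limma p = 0.0208, adjusted p = 0.390, exact permutation p = 0.1). Its unadjusted limma p was 0.0699, 0.0599 and 0.0530 without RU486 arrays 1, 2 and 3, and 0.0601 without placebo array 3. Nr4a2, which codes for NURR1, had scores of -1.57, 0.399 and -0.798 in RU486 arrays 1 to 3, against 1.20, 0.421 and 0.346 in placebo arrays 1 to 3, with a difference of -1.31 (SE 0.635, limma adjusted p = 0.471). RU486 array 2 reached the placebo arrays, so the groups overlapped, with a gap of -0.0531.

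Nr4a3, which codes for NOR1, had scores of -0.272, -0.238 and 2.02 in RU486 arrays 1 to 3, against -0.435, -0.436 and -0.639 in placebo arrays 1 to 3. The other RU486 arrays also lay above every placebo array, by 0.163 or more. The difference was 1.01 (SE 0.762, limma adjusted p = 0.668), and 0.248 without RU486 array 3. Whether Nr4a3 differed from Nr4a1 in its response was not tested.

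**Figure D2:**
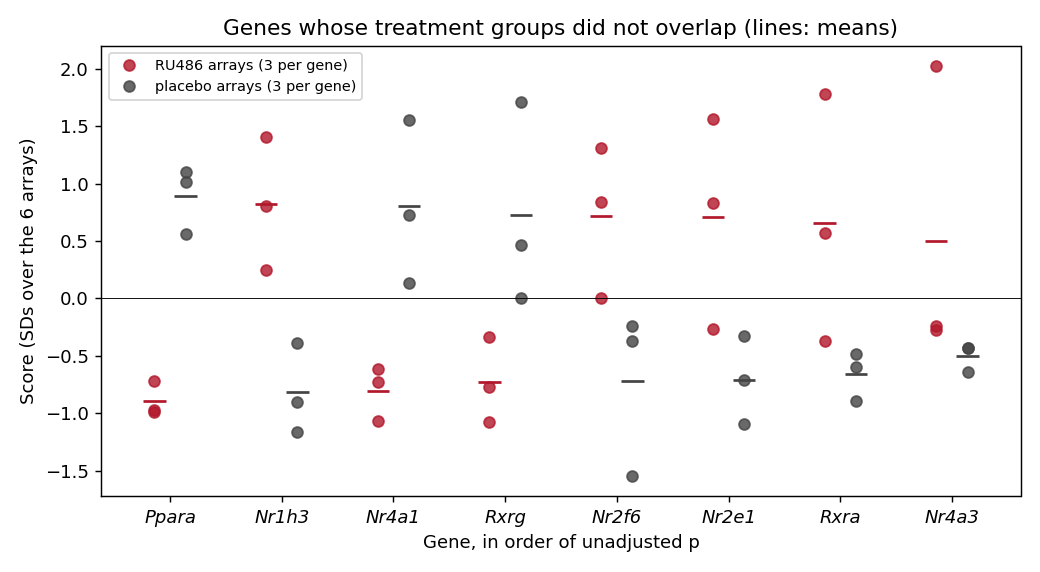
Scores (SDs over the 6 arrays) of the 8 genes whose RU486 and placebo arrays did not overlap, RU486 in red on the left and placebo in grey on the right of each gene, with lines for the means of 3 arrays. Ppara has the widest gap between groups, at 1.29, and for Nr4a3 a single RU486 array at 2.02 lies far above the other five.

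Promoter sequences are shown for the 4 genes of smallest unadjusted p so that the DNA before their starts can be read beside the scores. They are the 250 bases before the RefSeq start (GRCm38.p6, first listed start), on the strand of the gene. The core element AGGTCA that most of these receptors bind, the longer NR4A element AAAGGTCA, the steroid receptor palindrome and its arm AGAACA were searched on both strands. The element TGACG, the core of the cyclic AMP response element, was added after values were seen. AAAGGTCA holds AGGTCA, and capitals mark any match, which here are TGACG or, for the other strand, CGTCA. Ppara lies at chr15:85735526-85735775 on the + strand, Nr1h3 at chr2:91195117-91195366 on the - strand, Nr4a1 at chr15:101266596-101266845 on the + strand and Ppard at chr17:28232504-28232753 on the + strand.
Ppara: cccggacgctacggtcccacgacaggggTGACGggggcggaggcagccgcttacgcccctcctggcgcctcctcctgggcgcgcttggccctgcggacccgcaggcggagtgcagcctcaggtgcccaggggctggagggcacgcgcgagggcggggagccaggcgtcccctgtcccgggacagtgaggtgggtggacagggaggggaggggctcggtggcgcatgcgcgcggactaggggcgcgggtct
Nr1h3: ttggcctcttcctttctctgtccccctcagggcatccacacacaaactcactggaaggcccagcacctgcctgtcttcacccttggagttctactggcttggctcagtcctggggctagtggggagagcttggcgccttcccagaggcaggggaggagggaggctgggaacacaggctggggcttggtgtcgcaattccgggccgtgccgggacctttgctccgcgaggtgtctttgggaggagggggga
Nr4a1: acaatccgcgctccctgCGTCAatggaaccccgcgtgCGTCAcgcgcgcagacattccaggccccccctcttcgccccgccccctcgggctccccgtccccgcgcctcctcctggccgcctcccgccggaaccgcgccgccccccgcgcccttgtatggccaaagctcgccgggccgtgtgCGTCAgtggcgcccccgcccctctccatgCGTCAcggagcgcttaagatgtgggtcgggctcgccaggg
Ppard: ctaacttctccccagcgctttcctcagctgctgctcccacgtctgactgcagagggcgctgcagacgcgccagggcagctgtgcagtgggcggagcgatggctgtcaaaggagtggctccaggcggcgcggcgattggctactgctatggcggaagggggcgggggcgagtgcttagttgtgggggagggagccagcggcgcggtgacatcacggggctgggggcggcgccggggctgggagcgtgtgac

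The Nr4a1 promoter holds TGACG 4 times, each on the - strand and so printed as CGTCA, at -233, -213, -69 and -40 counted from the start. Ppara holds it once, at -222, and the Nr1h3 and Ppard windows hold none of the 5 elements. The reference table lists promoters for 33 of the 35 genes, Nr1h2 and Nr2e3 included and Thra and Hnf4g not. Of these, 10 hold TGACG (30.3%), Nr4a1, Nr4a2 and Nr4a3 among them, against 17.8% of 32851 mouse promoters of the same length. The family was counted once per gene, while the 32851 promoters are all listed starts of 27025 genes. AGGTCA occurs in 4 (12.1%, in Nr1h4, Nr5a2, Rarg and Thrb), against 14% of all promoters. AGAACA occurs in 1 (3.03%, Nr5a2), against 16.1%. AAAGGTCA and the palindrome occur in 0, against 1.34% and 0.387%. The median G and C content of the family's windows was 62%, against 52.4% for all, and the shares were not matched for it. A match describes the letters only, and a window without a match says nothing about the factor.

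The retinoid X receptors are the common dimer partners, and the 3 genes had differences of both signs. Rxra (Entrez gene 20181), the form most tissues use, had scores of 1.78, 0.567 and -0.375 in RU486 arrays 1 to 3, against -0.890, -0.482 and -0.596 in placebo arrays 1 to 3. The gap between groups was 0.107, and RU486 array 3 lay nearest the placebo arrays. The difference was 1.31 (SE 0.635, limma adjusted p = 0.470), and 0.752 without RU486 array 1. Rxrg (Entrez gene 20183), the form of muscle and brain, had scores of -1.07, -0.772 and -0.334 in RU486 arrays 1 to 3, against 1.71, 0.00216 and 0.465 in placebo arrays 1 to 3. The difference was -1.45 (SE 0.554, limma adjusted p = 0.390), with a gap of 0.336, and it was -0.959 without placebo array 1. The 5 skeletal muscle markers all had negative differences. Their mean score ran from -0.590 to -0.253 on RU486 arrays, against 0.216 to 0.749 on placebo arrays. Singly, Myh1 and Myh4 were parted (2 of 5, where 10.8% of all genes lay), and Tnnt3, Ckm and Acta1 overlapped. At an unadjusted limma p under 0.05 there were 0 of the 5. The part of muscle in the Rxrg difference was not tested. Rxrb stood at 0.295 (SE 0.901), with overlapping groups.

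The retinoic acid receptor genes had positive differences and overlapping groups. Rara stood at 0.954 (SE 0.778), and at 0.460 without placebo array 1, 0.501 without RU486 array 3 and 1.44 without placebo array 2. Rarg stood at 0.439 (SE 0.886) and Rarb at 0.0629 (SE 0.756), both within 1 SE of 0. Placebo array 1 had the lowest score for Rara, at -1.47, and for Rarg, at -1.70. Both Rarb probes peaked on RU486 array 2, at 1.51 and 1.54, but placebo array 1 stood at 0.821 on one probe and at -1.11 on the other.

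The receptor genes for thyroid hormone and vitamin D showed no separation. Thra stood at -0.185 (SE 0.908), with its highest score on placebo array 2 (1.75) and its lowest on placebo array 1 (-1.34). Thrb stood at -0.370 (SE 0.894) and Vdr at 0.0490 (SE 0.913). Vdr had 1.82 on RU486 array 2 and scores from -1.05 to 0.175 on the other 5 arrays, so that its group mean rests on that array: without it the difference was -0.851.

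Rora, an activator of the clock gene Arntl, stood at 0.435 (SE 0.787), and its probes disagreed in sign, at -0.280 and 1.15. Rorb, a relative expressed in retina and brain, stood at 0.986 (SE 0.768), and its probes gave 1.00 and 0.972. Both Rorb probes were high on RU486 array 1 alone, at 2.01 and 2.02, near the ceiling of a score over 6 arrays (2.04). Without that array the Rorb difference was 0.225.

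Among the orphan receptors of the NR2 class, Nr2f6 and Nr2e1 had higher scores with RU486 and groups that did not overlap, where 11.2% of all genes lay. Nr2f6 (Entrez gene 13864), also known as EAR2, a repressor, had scores of 1.31, 0.00635 and 0.837 in RU486 arrays 1 to 3, against -1.54, -0.369 and -0.241 in placebo arrays 1 to 3. The gap was 0.248, and the difference was 1.44 (SE 0.563, limma adjusted p = 0.390). Nr2e1 (Entrez gene 21907), the TLX gene known from neural stem cells, had scores of 0.832, -0.265 and 1.56 in RU486 arrays 1 to 3, against -0.328, -0.711 and -1.09 in placebo arrays 1 to 3. The arrays were parted by 0.0630 only, and the difference was 1.42 (SE 0.574, limma adjusted p = 0.395). Nr2c1 (0.0455, SE 0.913) and Nr2c2 (0.207, SE 0.907), the genes of the testicular receptors TR2 and TR4, and Nr2f1 (-0.280, SE 0.902), the gene of COUP-TFI, had overlapping groups.

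The liver-enriched factors and their repressor had wide errors. Hnf4a, a master regulator of hepatocyte genes, stood at -1.01 (SE 0.759), with 1.85 on placebo array 3, and at -0.341 without it. Its relative Hnf4g stood at 1.10 (SE 0.729), with its lowest score, -1.52, on that same array, and at 0.616 without it. Nr0b2 (SHP), a repressor without a DNA-binding domain, stood at -0.517 (SE 0.876), with 1.77 on placebo array 2, and turned to 0.239 without it.

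The estrogen-related receptors, which drive mitochondrial genes together with PGC-1 coactivators, had overlapping groups too. Esrra stood at 0.684 (SE 0.846). Its highest score was 1.65 on RU486 array 2, without which the difference was 0.0279. Esrrg stood at -0.483 (SE 0.880), and at 0.351 without placebo array 3, where it had 1.91. Esrrb stood at -0.267 (SE 0.586), and its probes disagreed, at 0.780 and -1.31. On the second probe the RU486 arrays lay within -0.679 to -0.640, below placebo scores of 1.87, -0.269 and 0.368. Nr5a2, the LRH-1 gene, stood at 0.137 (SE 0.910), and Nr6a1, a receptor gene of germ cells, at 0.0394 (SE 0.913).

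**Figure D3:**
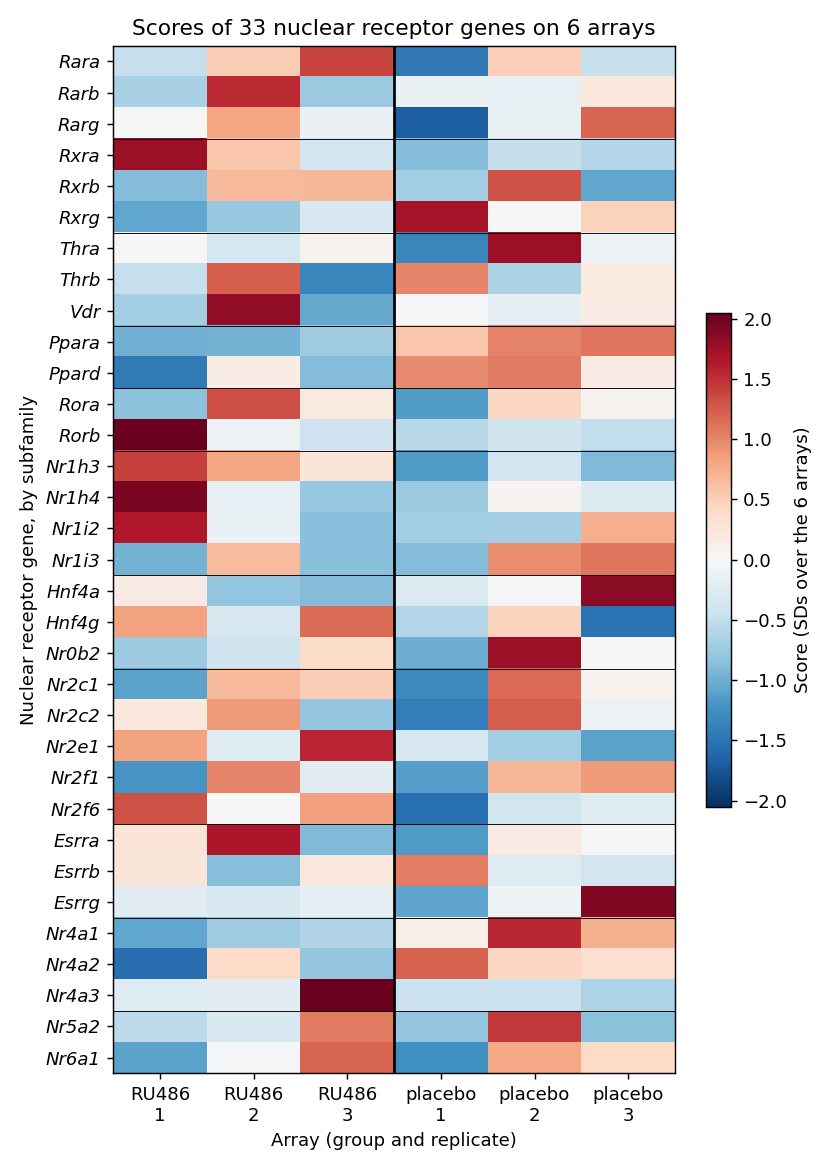
Scores (colour, in SDs over the 6 arrays) of 33 nuclear receptor genes on 3 RU486 arrays, left, and 3 placebo arrays, right, with thin lines between subfamilies. Ppara is low on every RU486 array and high on every placebo array, while Rorb, Nr1h4, Nr4a3 and Vdr each stand out on a single RU486 array.

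Arrays of the same group often differed more than the groups did. Placebo array 1 held the lowest score for 14 of the 33 genes (42.4%), against 24.2% of all genes, and the median score of the family there was -0.767, against -0.409 for all genes. Placebo array 2 held the highest score for 8 genes (24.2%), against 15.3% of all genes, and the lowest for 0. RU486 array 1 held the highest score for 6 genes (18.2%), against 9.02% of all genes. No test was run on these shares.

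**Figure D4:**
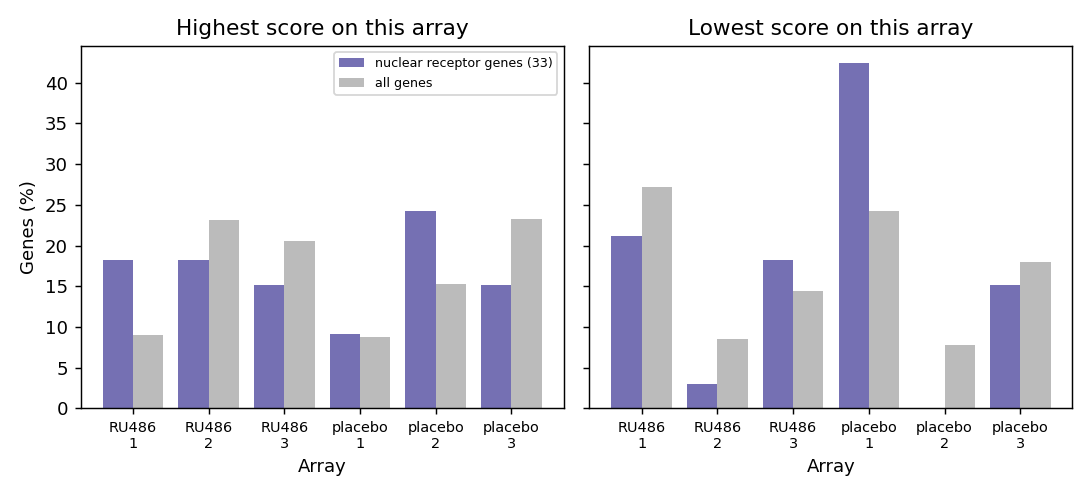
Percentage of the 33 nuclear receptor genes (purple) and of all genes (grey) that had their highest score, left panel, or lowest score, right panel, on each of the 3 RU486 and 3 placebo arrays. Placebo array 1 holds the lowest score for 42.4% of the family and 24.2% of all genes.

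Genes around these receptors were read from 11 lists, chosen with earlier results of these data known. Over these lists 0 genes passed at an adjusted p under 0.05, and counts below are at an unadjusted limma p under 0.05, where 12.3% of all genes lay. The median differences of the lists are set against -0.0582 for all genes. Single arrays decided many of these counts: with an array left out, a setting added after seeing the data, 6.84% to 17.7% of all genes were past that p, and each list's range of counts is given beside it.

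In the PPAR target list 3 of 20 measured genes (15%) were past that p, 1 lower and 2 higher with RU486, and the median difference was -0.555. With an array left out the count was 2 to 4. The fatty acid binding protein gene Fabp3 stood at -1.66 (SE 0.376). The peroxisomal oxidation gene Ehhadh stood at 1.64 (SE 0.396), and Cpt1a, whose enzyme lets fatty acids into mitochondria, at 1.51 (SE 0.515). Over the list 13 of the 20 differences were negative, where 51.6% of all genes lay. The groups did not overlap for 5 lower and 3 higher genes, where 10.8% and 11.2% of all genes lay. Ppara and Ppard both had negative differences, and whether the list followed them was not tested.

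Of the LXR targets, 0 of 14 were past that p, with a median of -0.438 and counts of 0 to 3 with an array left out (3 without RU486 array 2, 1 without placebo array 1), while Nr1h3 itself stood at 1.64. The nearest were Cyp7a1 of bile acid synthesis (1.47, SE 0.545), the sterol transporter gene Abcg8 (1.37, SE 0.601) and Mylip (-1.10, SE 0.729), which codes for a ubiquitin ligase of the LDL receptor. The FXR, PXR and CAR list had 3 of 15 (20%), and its median was -0.525. That count was 0 without RU486 array 1 or placebo array 2, 1 without RU486 array 2 or 3, and otherwise 2. Its first genes were the export pump gene Abcc2 (-1.55, SE 0.479), its relative Abcc3 (1.51, SE 0.511) and Cyp8b1 (1.51, SE 0.514), a gene of bile acid synthesis.

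The vitamin D list held the highest share, 5 of 10 genes (50%), while Vdr did not differ beyond its error. Lrp2, the uptake receptor for the vitamin D carrier protein, stood at -1.70 (SE 0.212) and Cyp27a1, a sterol hydroxylase gene, at -1.66 (SE 0.375). Calb1, a calcium-binding protein gene, stood at 0.829 (SE 0.240), Trpv5, a calcium channel gene, at 1.56 (SE 0.471) and Cyp24a1, whose enzyme breaks vitamin D down, at 1.56 (SE 0.474). The last is a well-known VDR target, and its scores were -0.126, 1.12 and 1.35 in RU486 arrays 1 to 3, against -0.555, -0.800 and -0.986 in placebo arrays 1 to 3. The median of the list was 0.850, and its mean score ran from 0.0136 to 0.396 on RU486 arrays, against -0.451 to -0.0661 on placebo arrays. Left out in turn, single arrays brought the count of 5 to 4 without RU486 array 1, to 2 without placebo array 2, and to 3 without RU486 array 2, RU486 array 3, placebo array 1 or placebo array 3.

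The list of immediate early genes, which are induced beside the NR4A genes, had 3 of 16 (18.8%), all lower with RU486, and a median of 0.0479. The count was 0 without placebo array 3, 1 without RU486 array 2, and otherwise 2 or 3. They were Ier2 (-1.59, SE 0.453), Fos (-1.54, SE 0.488) and Zfp36 (-1.54, SE 0.488). Jun, the partner of Fos in AP-1, stood at 1.37 (SE 0.601).

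The list of clock and metabolic genes with ROR elements had 2 of 9 (22.2%) and a median of 0.813. They were G6pc (1.55, SE 0.485), a gene of glucose release and not of the clock, and Cry1 (1.52, SE 0.503), a clock repressor gene. The count was 0 without RU486 array 3 or placebo array 3, 1 without RU486 array 1 or placebo array 2, and otherwise 2. Nfil3, another clock repressor gene, came next at -1.45 (SE 0.552). The retinoid list had 2 of 19 (10.5%) and a median of 0.105. The count was 0 without placebo array 2 or 3, 1 without RU486 array 1 or placebo array 1, and otherwise 2. They were Aldh1a1 (-1.50, SE 0.519), which codes for an enzyme that makes retinoic acid, and Stra8 (1.49, SE 0.531), a retinoic acid target of germ cells, and Cyp26c1 (1.46, SE 0.549), of retinoic acid breakdown, followed. The thyroid hormone list had 1 of 9 (11.1%), with a median of 0.242. The count was 3 without RU486 array 3 and otherwise 1. It was the corepressor gene Hr (1.69, SE 0.348), followed by the transporter gene Slc16a10 (0.961, SE 0.663) and the deiodinase gene Dio1 (-0.883, SE 0.799).

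Mitochondrial targets of the estrogen-related receptors had 1 of 13 (7.69%), the cytochrome c gene Cycs (-1.62, SE 0.417), with a median of -0.454. The count was 3 without RU486 array 2, 0 without placebo array 1 and otherwise 1. Cox5a (-1.43, SE 0.565) and the coactivator gene Ppargc1a (-1.30, SE 0.643) followed. The ovarian NR5A target list had 0 of 9, also with any array left out, and a median of 0.340, led by Star (0.958, SE 0.777), Cyp17a1 (0.852, SE 0.807) and Cyp11a1 (0.641, SE 0.855), all genes of steroid synthesis. Coregulators had 4 of 26 (15.4%) and a median of 0.0212. The count was 1 without placebo array 2, 2 without RU486 array 1, RU486 array 3 or placebo array 3, and otherwise 3. The first were Hr again, Tbl1xr1 (-1.60, SE 0.443), a subunit of the corepressor complex, and the acetyltransferase gene Ep300 (-1.54, SE 0.490), and the fourth was Lcor (1.46, SE 0.518).

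**Figure D5:**
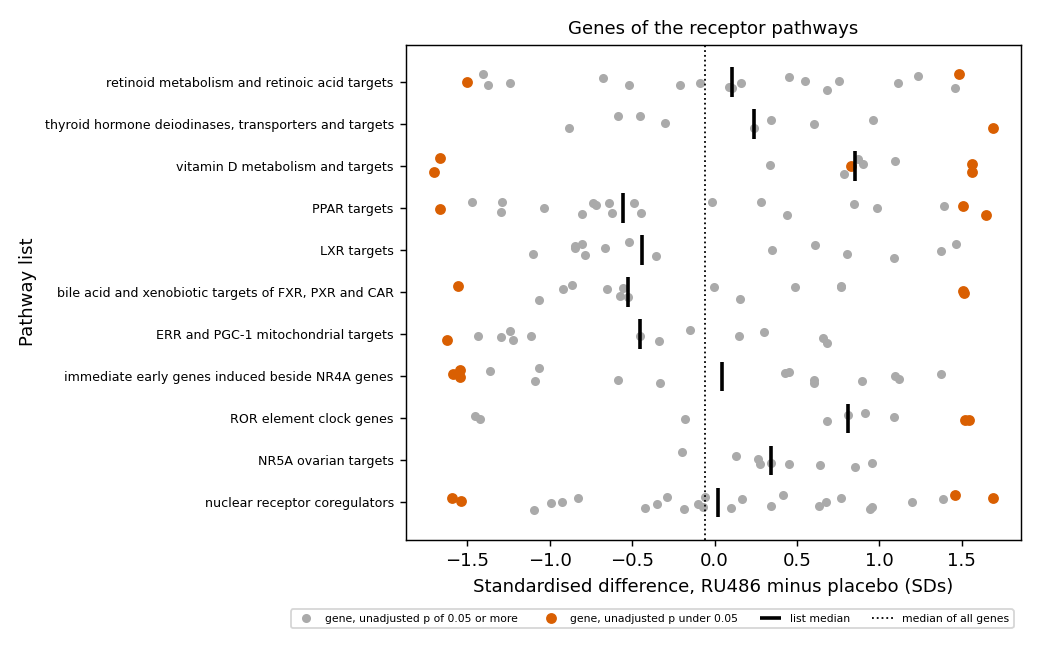
Standardised difference (in SDs, RU486 minus placebo) of the genes in each of 11 lists of receptor pathways, orange where the unadjusted limma p was under 0.05, with a bar at each list's median and a dotted line at the median of all genes. The vitamin D list has 5 orange points of 10, and the LXR and NR5A lists have 0.

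Marker lists of other cells and of the cell cycle were read on the same arrays. All 7 proliferation markers had negative differences and groups that did not overlap, where 10.8% of all genes lay. Their mean score ran from -1.07 to -0.576 on RU486 arrays, against 0.470 to 1.43 on placebo arrays. Red cell markers had 3 of 3 negative differences, with mean scores from -0.538 to -0.494 on RU486 arrays, against -0.432 to 2.0 on placebo arrays. Each was highest on placebo array 1, Hba-a1 at 1.99, Hbb-b1 at 2.01 and Alas2 at 2.01. On placebo array 2 they stood at -0.442, -0.422 and -0.433, near the RU486 arrays. Luteal and theca markers had 0 of 4 negative differences. Only their mean score was parted, from 0.129 to 0.637 on RU486 arrays, against -0.611 to -0.186 on placebo arrays. Each of the 4 genes overlapped between groups and was highest on a single RU486 array. These were array 1 for Akr1c18 (2.03), array 2 for Cyp17a1 (2.02) and array 3 for Star (1.94) and Cyp11a1 (1.75). With scaled scores it cannot be seen which markers were absent. Of 15 marker lists the mean scores of the other 11, beside these 3 and skeletal muscle, overlapped between groups. The part of these cells in the differences of Ppara, Nr4a1 and Nr1h3 was not tested.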

How the data were processed

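RNA of ovarian tumours was hybridised to Agilent single-colour arrays, 3 per treatment. The deposited values are scores per probe; Partek is named, without a version, per the submitters' processing notes. Scaling of each probe to mean 0 and SD 1 was found from the values. The sources used here do not give the background correction, normalization, log step, probe filter, slide or scan. Signal over background is unknown, and the number of arrays limits the precision.

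Groups came from sample titles. Of the probes, 24903 had 1 gene symbol, 0 several and 13029 none; 24627 matched the RefSeq table (GRCm38.p6) by Entrez ID, which changed 0 symbols. Scores were averaged by gene. A treatment term was fitted over 6 arrays (limma 3.58.1, R 4.3.3) with the ordinary statistic (4 residual degrees of freedom), two-sided, and Benjamini-Hochberg adjustment over all genes. Scaling leaves this statistic unchanged for a gene with 1 probe. For the 2643 genes with several probes, 4 members among them, scaling set the weight of each probe in the average. The fit was tested by probe on simulated independent probes without shifts between arrays. That simulation does not cover the averaging by gene or arrays that differ as these do. Groups do not overlap where every array of one lies beyond every array of the other. Alternatives were eBayes, array centring, quantile normalization, array weights, other probe summaries, a replicate block and each array left out. All members are named, with scores by array for those parted or under an unadjusted p of 0.05, and the 3 genes of smallest p per list; Ppard, Nr4a2, Jun, Cyp24a1, Trpv5 and Lcor were added after values were seen. Members and lists were chosen with earlier results of these data known. No 2 arrays were identical (0 pairs).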

Additional observations from a re-analysis of the deposited data

How the results depend on the processing

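Under all 13 alternatives 0 nuclear receptor genes had an adjusted limma p under 0.05; at an unadjusted p under 0.05 they were 1 (without placebo array 3) to 8 (24.2%, with array weights, where 25.8% of all genes were). Of the 33 differences, 15 kept their sign under every alternative, Ppara, Ppard, Nr1h3, Nr4a1, Nr4a2, Nr4a3, Rxra, Rxrg, Nr2e1 and Nr2f6 among them, and 18 changed it under at least 1. Much of this was fixed in advance. For a gene with 1 probe, eBayes, the replicate block and the other probe summaries leave the difference as it is. Where the groups do not overlap, leaving out 1 array cannot turn the sign. In the whole table the 1 gene past an adjusted p of 0.05 became 0 with eBayes, array centring, quantile normalization or the replicate block, 7 with array weights, and 1 to 3 with an array left out. Of the nuclear receptor genes under an unadjusted p of 0.05, the higher ones numbered 2 after array centring (3.1% of all genes), 3 with array weights (12.6%), 0 with the replicate block (1.92%), and 0 to 2 with an array left out (1.66% to 10.5%). The lower ones numbered 5 with array weights (13.3%) and 1 to 5 with an array left out (4.59% to 8.97%). Non-overlapping genes numbered 8 in the main fit (22% of all genes), 6 with array centring (16.7%) and 6 with quantile normalization (17%). They numbered 10 to 13 with an array left out, which leaves fewer arrays to overlap, and 27.6% to 40.8% of all genes then did not overlap. The replicate block changed no other call. Deviations of same-numbered arrays from their group means correlated at 0.266, 0.0770 and -0.239, and those of differently numbered arrays at -0.363 to 0.337. Within a group these deviations sum to 0, so the correlations cannot decide whether the numbers pair the samples. With array weights the sign turned for these genes: Rarb -0.318, Rxrb -0.849, Vdr -0.387, Rora -0.395, Nr2c1 -1.03, Nr2c2 -0.959, Esrra -0.0863, Esrrb 0.278, Nr5a2 -0.786, Nr6a1 -0.584. With the first probe of a gene Rora stood at -0.280 and Esrrb at 0.780. With single arrays left out the signs of these genes turned within their ranges: Rarb -0.683 to 0.457, Rarg -0.300 to 1.14, Rxrb -0.160 to 1.02, Thra -0.902 to 0.642, Thrb -1.08 to 0.203, Vdr -0.851 to 0.588, Rora -0.115 to 0.967, Nr1h4 -0.143 to 1.21, Nr1i2 -0.288 to 0.965, Nr0b2 -1.15 to 0.239, Nr2c1 -0.599 to 0.640, Nr2c2 -0.451 to 0.876, Nr2f1 -0.916 to 0.252, Esrrb -0.523 to 0.188, Esrrg -1.14 to 0.351, Nr5a2 -0.360 to 0.897, Nr6a1 -0.583 to 0.594. The cause of these turns was not tested. The median difference of all genes moved by -0.22 with array weights and by -0.31 to 0.26 with an array left out. Depth of signal is unknown here, so probes near background could not be set apart.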

Other observations

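Nr2e1 shared its order of arrays with many other genes, which was noticed after its values were seen. Its scores ran, from highest to lowest, over RU486 arrays 3, 1 and 2 and placebo arrays 1, 2 and 3. The same order held for 1176 of 21878 genes (5.38%), the most frequent of 716 orders seen, where the average over the 720 possible orders is 0.139%. Of 191 genes in the family and its pathway lists, 7 had it: Nr2e1, Cry1, Cyp26c1, Cyp7a1, Cyp8b1, Stra8 and Trpv5. What these genes share beyond the order was not tested.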
